A study of Zea mays with 12 samples.

Results

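The comparison set embryos of the maize (Zea mays) inbred line Mo17 against embryos of the inbred line B73, both from seeds that took up water at 25 °C, across all 99 genes of the deposited table. It used 3 Mo17 and 3 B73 libraries, 6 of the 12 in the study; the other 6 were the same lines at 10 °C. The labels describe B73 as low temperature resistant and Mo17 as low temperature sensitive, and 25 °C as the normal condition. Seeds took up water in germination paper and were sampled at 2 h, and the replicates are biological per the series' design text. The sources used here do not say how many embryos went into a library. The table's gene symbols run from a2 to ARF16 in alphabetical order, so the genes share an initial letter and no common function.

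B73 is the line whose genome serves as the maize reference, and Mo17 is the inbred most often set against it. In an imbibing embryo, respiration restarts from stored reserves before the root emerges. Oxygen is scarce inside the wet seed, so alcohol dehydrogenases, which oxidise NADH while making ethanol, work beside the mitochondria. Alternative oxidases pass electrons to oxygen without pumping protons, and ADP/ATP carriers exchange the adenylates across the inner mitochondrial membrane. Starch and raffinose sugars supply the carbon, while auxin and jasmonate take part in growth and stress signalling.

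Values are the authors' FPKM (fragment numbers adjusted for transcript length and sequencing depth), given per library in the order of replicates 1, 2 and 3. The FPKM scale was read only within a gene. Libraries correlated at 0.994 to 0.997 within B73, 0.981 to 0.99 within Mo17 and 0.887 to 0.918 between the lines (Pearson r of log2(FPKM + 1) across 76 genes). The depth of the 6 libraries relative to the mean of all 12 ran from 0.817 to 1.07. Of 21 tissue markers, 3 were in the table. The embryo subunits of ADP-glucose pyrophosphorylase, Agpsemzm and AGP2, were detected in every library, the aleurone pigment gene a2 stood at 0 to 0.06 FPKM, and no endosperm or green-tissue marker was among the 99 genes. These markers thus could not show carry-over of endosperm, and whether a2 would reveal aleurone was not tested. In whole embryos, fewer cells of a type and less RNA per cell cannot be told apart. Per the submitters' processing notes, the B73 genome build served both lines. A line difference in RNA and one in how reads align to that build cannot be told apart here either.

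Between the lines, 47 of the 76 genes that passed a filter on low values differed (61.8% of those tested), 28 higher (36.8%) and 19 lower (25.0%) in Mo17. The test was edgeR's quasi-likelihood test on the counts of all 12 libraries, with Benjamini-Hochberg adjustment over 76 genes and a threshold of 0.05, and "called" below means past it. Of the 28 higher genes, 18 were at least 2-fold higher and 9 at least 4-fold, with a median log2 difference of 1.18. Of the 19 lower genes, 6 were at least 2-fold lower and 3 at least 4-fold, with a median of -0.62. For 53 of the 76 genes (69.7%) all Mo17 libraries lay on the same side of all B73 libraries. Of the called genes, a2_1 alone had overlapping libraries. The filter asked for an FPKM of at least 1 in 3 of the 12 libraries. ae1_1, aldh5, am1, amyb5 and aox1 met it through Mo17 libraries only, and aox1_1 through B73 libraries only. The filter thus largely set the direction of these 6, but not how far apart the lines stood. akh2 reached 1 FPKM in B73 only in replicate 3 at 25 °C (1.21). abp4 reached it in Mo17 only in replicates 1 and 3 at 10 °C (1.01 and 1.09). Both genes thus also needed the line where they were high to pass, and both stay in the counts that follow. Without the 6 genes, 13 of 23 higher genes and 5 of 18 lower genes differed at least 2-fold. With the same 6 left out, this was 6 of 21 and 5 of 26 with TMM factors, 10 of 22 and 5 of 21 with median-ratio factors and 4 of 15 and 4 of 22 with quantile normalization. The split of 28 higher and 19 lower became 26 and 27 with TMM factors, 27 and 22 with median-ratio factors and 18 and 23 with quantile normalization. The median log2 difference of all tested genes was 0.17, and these scalings moved it to -0.09, 0.03 and -0.09.

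**Figure D1:**
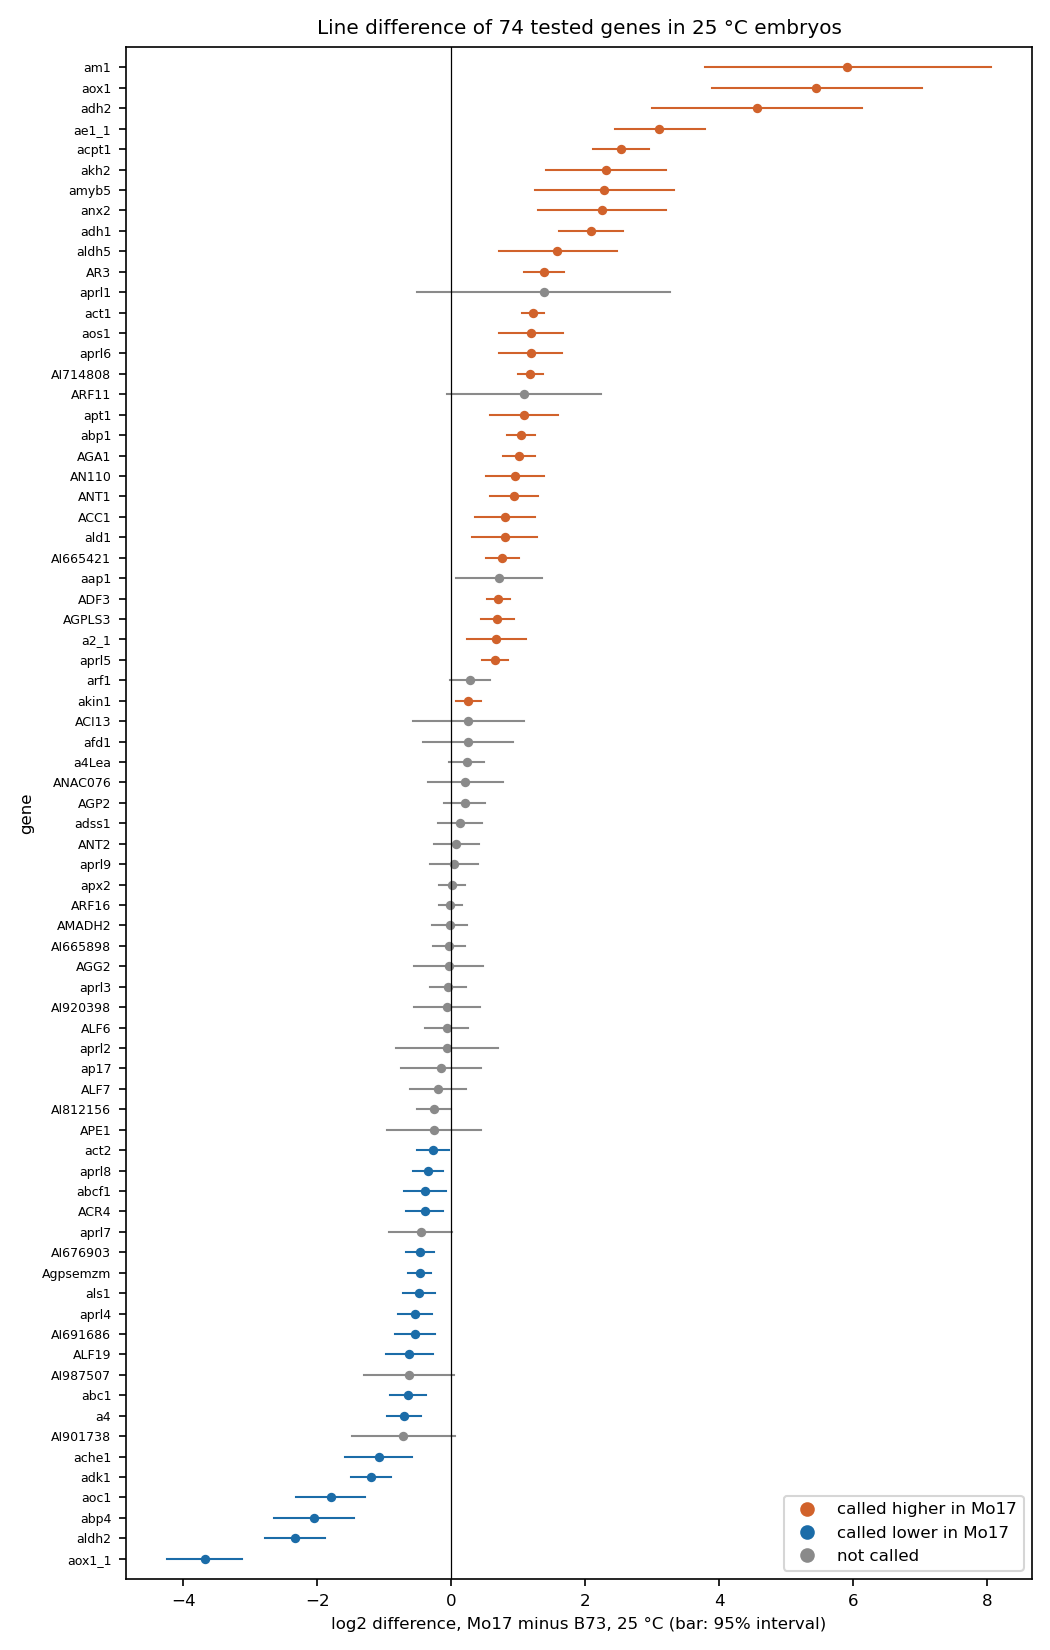
Log2 difference between Mo17 and B73 at 25 °C (x axis) for 74 of the 76 tested genes (y axis), with 95% intervals as bars and colour for the call. Differences run from -3.67 for aox1_1 to 5.92 for am1. Among called genes, other scalings turned the sign of act2, akin1 and ald1 and took adh1 and AR3 to 0. Some genes that were not called changed sign as well, among them a4Lea and ACI13.

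The fermentation and glycolysis genes were all higher in Mo17, 3 of 3 beside 36.8% of all tested genes, where ald1 turned to -0.04 and adh1 to 0 with quantile normalization. adh1 encodes the main alcohol dehydrogenase of oxygen-starved maize tissue and lies on chromosome 1 at 278821306 to 278824958 (minus strand, B73 RefGen_v4, as for all positions here). It stood at 411.89, 499.88 and 496.29 FPKM in B73 and at 1792.88, 1921.53 and 2272.37 in Mo17. The lowest Mo17 library was far above the highest B73 library, and the mean was 4.25-fold higher (log2 difference 2.09 ± 0.22, SE). adh2, the second alcohol dehydrogenase gene, on chromosome 4 at 14333228 to 14336526 (plus strand), stood at 1.57, 1.2 and 1.33 FPKM in B73 and at 44.28, 6.1 and 46.94 in Mo17. Mo17 replicate 2 was thus well below its partners yet above every B73 library. The fold over B73 was 23.7, with a 95% interval of 3.00 to 6.13 on the log2 scale. ald1, the cytoplasmic fructose-bisphosphate aldolase of glycolysis, stood at 223.48, 255.14 and 256.95 FPKM in B73 and at 295.76, 421.59 and 563.8 in Mo17. The Mo17 libraries were widely spread, without reaching the B73 range, and the log2 difference was 0.80 ± 0.22 (SE; edgeR quasi-likelihood, adjusted p = 0.0076).

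The aldehyde dehydrogenases, which turn aldehydes such as acetaldehyde into acids, went in opposite directions. aldh2, annotated as the mitochondrial enzyme RF2B (chromosome 4 at 168917180 to 168919959, minus strand), stood at 126.83, 88.08 and 129.39 FPKM in B73 and at 23.93, 21.54 and 22.95 in Mo17. The Mo17 libraries hardly varied, all B73 libraries were above them, and the mean was 5.03-fold lower in Mo17 (log2 difference -2.33 ± 0.20, SE). aldh5 had 0.26, 0.51 and 0.45 FPKM in B73 and 1.3, 1.18 and 1.22 in Mo17, close to the filter. It met the filter through Mo17 libraries only, so it was bound to stand higher there. Its log2 difference was 1.59 ± 0.40 (SE), a call that quantile normalization ended (0.18). AMADH2, annotated to betaine-aldehyde dehydrogenase activity and the response to anoxia, overlapped between the lines, with a log2 difference of -0.02 and a 95% interval of -0.28 to 0.23.

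Among the alternative oxidases, aox1 was higher and aox1_1 lower in Mo17, each by more than 4-fold. aox1 met the filter through Mo17 libraries only and aox1_1 through B73 libraries only, so both were bound to stand apart. aox1 (chromosome 2 at 12637892 to 12640564, plus strand) stood at 0.62, 0.68 and 0.19 FPKM in B73 and at 6.83, 32.25 and 27.16 in Mo17. Mo17 replicate 1 was the low library of its line, still far above the highest B73 library. aox1_1 (chromosome 5 at 205304124 to 205306744, minus strand) showed the reverse, at 8.41, 7.61 and 8.59 FPKM in B73 and at 0.43, 0.76 and 0.73 in Mo17. Every B73 library was far above every Mo17 library. The log2 differences were 5.45 ± 0.71 and -3.67 ± 0.26 (SE; edgeR quasi-likelihood, adjusted p = 5.28e-05 and 5.99e-07). aox3, the remaining alternative oxidase, lies 70703 bases upstream of aox1 on the same strand. It was listed at 0 in all 3 B73 libraries and at 0.17, 0.38 and 0.18 FPKM in Mo17, too low for the filter.

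Of 4 genes of adenylate balance and energy sensing, 2 were higher, 1 was lower and 1 was not called, beside 61.8% called over all tested genes, where akin1 turned to -0.0016 with TMM factors. ANT1, a mitochondrial ADP/ATP carrier, stood at 235.69, 278.09 and 224.41 FPKM in B73 and at 457.3, 493.9 and 463.61 in Mo17. The lines did not overlap, and the log2 difference was 0.94 ± 0.16 (SE), falling to 0.07 and losing its call with quantile normalization. ANT2, the other carrier, overlapped at 143.95 to 189.79 FPKM in B73 and 167.07 to 181.66 in Mo17. The 95% interval of its log2 difference was -0.26 to 0.41. adk1, an adenylate kinase, which interconverts ATP, ADP and AMP, stood at 23.45, 21.66 and 22.68 FPKM in B73 and at 9.44, 11.44 and 8.78 in Mo17. Its mean was 2.28-fold lower in Mo17 (log2 difference -1.19 ± 0.14, SE). akin1, a regulatory subunit of the SnRK1 kinase that responds to energy shortage, stood at 31.03, 28.7 and 30.33 FPKM in B73 and at 35.41, 36.91 and 35.41 in Mo17. The ranges did not meet, and the log2 difference was 0.26 ± 0.08 (SE). Its call was lost with median-ratio factors (0.12) and without B73 25 °C replicate 2 (0.23) or Mo17 25 °C replicate 2 (0.24).

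Starch genes were called in both directions. Of 6 starch genes 5 were tested, with 3 higher, 1 lower and 1 not called, against 36.8% higher and 25.0% lower over all tested genes. Of the higher genes, ae1_1 and amyb5 met the filter through Mo17 libraries only, so these were bound to stand higher in Mo17. ADP-glucose pyrophosphorylase, which makes the glucose donor of starch synthesis, is built of large and small subunits. The large subunit AGPLS3 stood at 14.2, 11.63 and 12.6 FPKM in B73 and at 22.68, 21.09 and 18.28 in Mo17, all Mo17 libraries above B73 (log2 difference 0.69 ± 0.11, SE). The small subunit of the embryo, Agpsemzm, stood at 149.01, 121.52 and 133.88 FPKM in B73 and at 99.66, 92.92 and 99.1 in Mo17. All Mo17 libraries lay below B73 (log2 difference -0.47 ± 0.08, SE). AGP2, annotated to the same activity, had every Mo17 library (220.26 to 224.58 FPKM) just above the B73 libraries (157.14 to 215.4). It was not called, with a log2 difference of 0.21 and a 95% interval of -0.10 to 0.51. ae1_1, a starch branching enzyme, which adds the side chains of amylopectin, stood at 0.44, 0.48 and 0.33 FPKM in B73 and at 3.79, 2.71 and 4.36 in Mo17. The lines were far apart, 8.63-fold on the means (log2 difference 3.11 ± 0.31, SE). amyb5, a beta-amylase that releases maltose from starch, rose from 0.24 to 0.32 FPKM in B73 to 0.97 to 1.73 in Mo17, a log2 difference of 2.28 ± 0.47 (SE). It was not called with quantile normalization (0.35). ae1, a 675-base entry on chromosome 4, was listed at 0 in all 6 libraries.

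AGA1, an alkaline alpha-galactosidase annotated to raffinose breakdown, stood at 237.06, 240.14 and 280.34 FPKM in B73 and at 443.59, 545.1 and 544.63 in Mo17. The lines did not overlap and the mean was 2.02-fold higher in Mo17 (log2 difference 1.02 ± 0.11, SE), a call lost with quantile normalization (0.06). Its relative AGA2 was at 0.0, 0.03 and 0.12 FPKM in B73 and at 0.42, 0.21 and 0.65 in Mo17, below the filter. AR3 carries an aldo-keto reductase enzyme number in the table and no named function. It took the largest share of counts over the 99 genes, 21.6% to 27.1% in B73 and 32.6% to 37.5% in Mo17. It stood at 1975.76, 1454.13 and 1688.21 FPKM in B73 and at 4754.76, 4260.41 and 4388.29 in Mo17. The 3 Mo17 libraries were more than 2-fold above the highest B73 library (log2 difference 1.39 ± 0.14, SE), a difference that quantile normalization set to 0. Without AR3, normalized counts over the other genes summed to 773856 to 886389 in Mo17 libraries and 514526 to 553537 in B73 libraries. These sums include other abundant genes that were higher in Mo17, such as adh1.

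**Figure D2:**
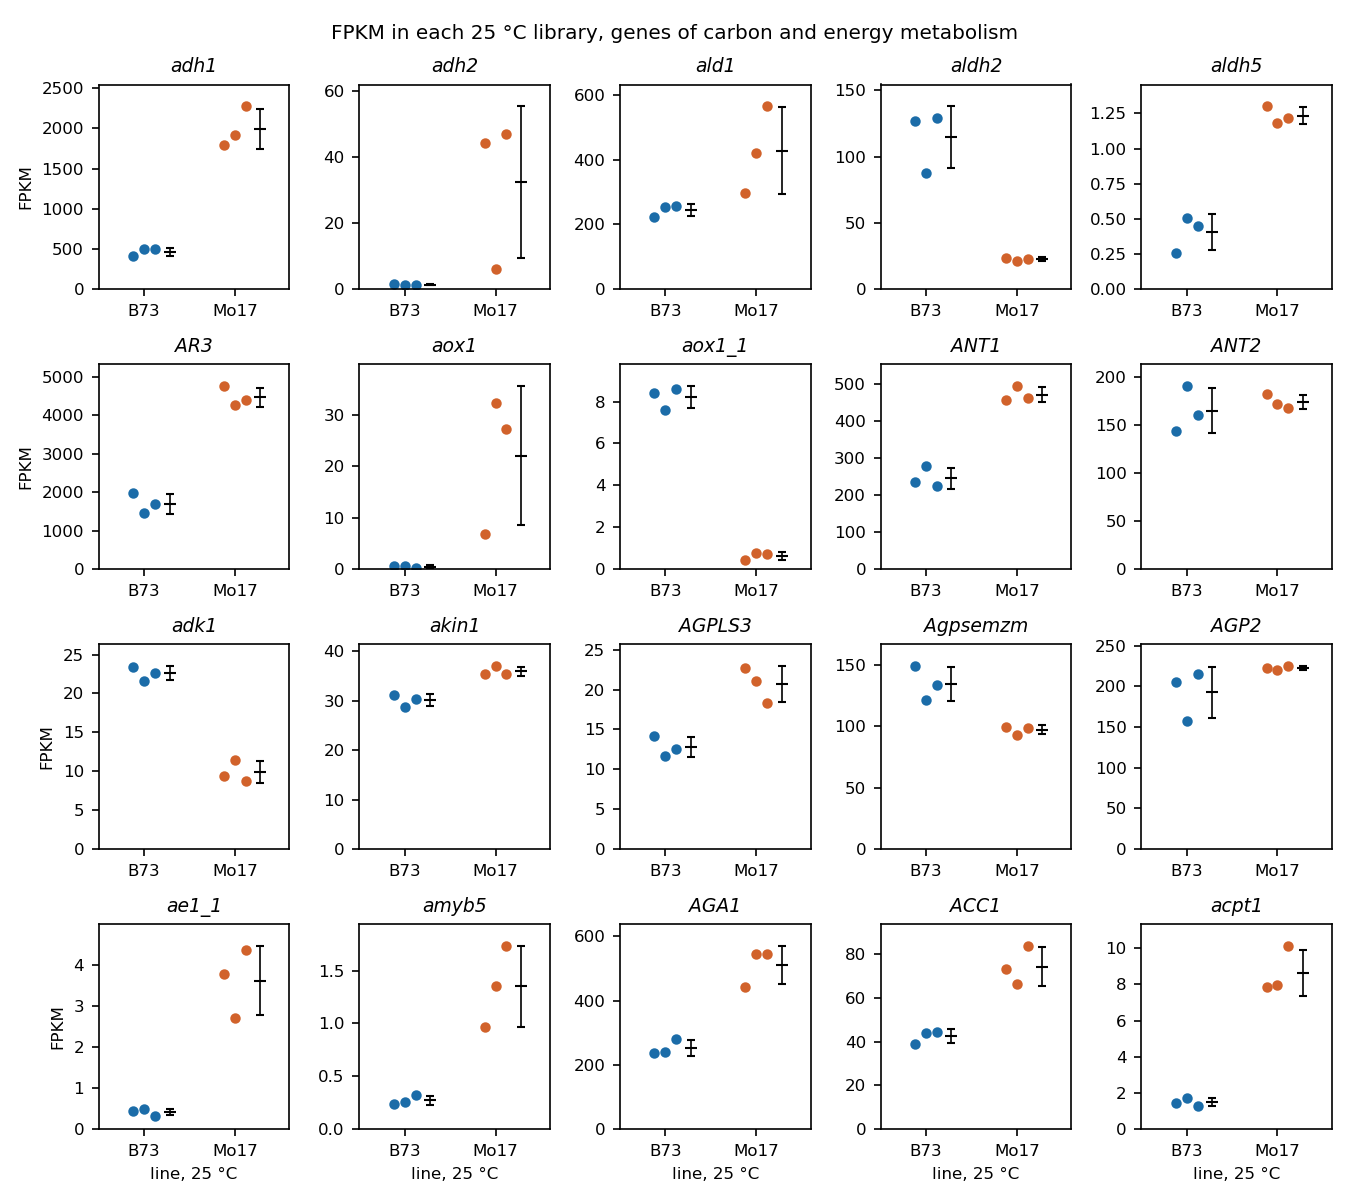
FPKM (y axis, from 0) in each of the 3 B73 and 3 Mo17 libraries at 25 °C (x axis, points in replicate order), with the mean and SD as a bar, for 20 genes of carbon and energy metabolism. The lines overlap only for ANT2, and adh2, aox1 and ald1 show the widest spread in Mo17. Among called genes, other scalings turned the sign of akin1 and ald1 and took adh1 and AR3 to 0. AGP2 and ANT2, not called, also turned negative in some alternatives, to -0.15 and -0.19 at the lowest.

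Both genes of the fatty acid synthesis list were higher in Mo17, beside 36.8% higher over all tested genes. ACC1, acetyl-CoA carboxylase, which makes the malonyl-CoA that chains are built from, stood at 39.0, 43.97 and 44.47 FPKM in B73 and at 72.96, 66.13 and 83.55 in Mo17. The lines did not overlap (log2 difference 0.80 ± 0.20, SE). acpt1, annotated to acyl carrier activity, which holds the growing chain, stood at 1.43, 1.73 and 1.3 FPKM in B73 and at 7.84, 7.94 and 10.11 in Mo17. It was 5.79-fold higher on the means, and among the calls with the smallest adjusted p (edgeR quasi-likelihood, 7.19e-07). The table's pathway and enzyme number columns put acpt1 under glycolysis instead, so its annotation is not uniform.

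Of the amino acid genes described here, akh2 was higher and als1 and ACR4 were lower in Mo17. akh2, a bifunctional aspartokinase and homoserine dehydrogenase at the head of threonine and methionine synthesis, stood at 0.81, 0.9 and 1.21 FPKM in B73 and at 4.91, 3.62 and 6.13 in Mo17. The lines were well apart, 4.98-fold on the means (log2 difference 2.31 ± 0.41, SE), and akh2 needed its Mo17 libraries to pass the filter. als1, an acetolactate synthase, which catalyses the first step of branched-chain amino acid synthesis, stood at 122.45, 115.4 and 129.18 FPKM in B73 and at 97.31, 83.02 and 81.9 in Mo17, without overlap (log2 difference -0.49 ± 0.11, SE). ACR4, with a regulatory role in amino acid metabolism in the table's annotation, was 1.32-fold lower (-0.40 ± 0.12, SE). It lost its call without B73 25 °C replicate 3 (-0.33) or Mo17 25 °C replicate 2 (-0.36) or 3 (-0.32).

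In jasmonate synthesis, allene oxide synthase makes an unstable epoxide that allene oxide cyclase closes into the ring of the hormone precursor, and the genes of these consecutive steps went in opposite directions. aos1 stood at 207.13, 296.5 and 267.32 FPKM in B73 and at 529.8, 584.84 and 645.56 in Mo17. Every Mo17 library was above the B73 range, with a log2 difference of 1.19 ± 0.21 (SE) that fell to 0.26 and lost its call with quantile normalization. aoc1 stood at 25.67, 19.99 and 27.92 FPKM in B73 and at 7.26, 6.46 and 7.46 in Mo17. Every Mo17 library was below the B73 range, and the mean was 3.47-fold lower (log2 difference -1.80 ± 0.23, SE).

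Of 4 auxin genes 1 was higher, 1 lower and 2 not called, beside 36.8% higher and 25.0% lower over all tested genes. abp1, an auxin-binding protein, stood at 71.74, 60.9 and 73.62 FPKM in B73 and at 137.37, 141.49 and 145.09 in Mo17. Its Mo17 libraries were close together and above all B73 libraries (log2 difference 1.04 ± 0.10, SE). abp4, a second auxin-binding protein, stood at 3.12, 3.02 and 3.06 FPKM in B73 and at 0.67, 0.96 and 0.59 in Mo17, 4.14-fold lower on the means (-2.05 ± 0.27, SE). It needed its B73 libraries to pass the filter. ARF16, an auxin response factor, overlapped at 255.63 to 263.47 FPKM in B73 and 243.79 to 273.8 in Mo17, with a 95% interval of -0.18 to 0.16 on the log2 scale. TMM factors called it lower (-0.28). ARF11, another auxin response factor, stood at 2.42, 2.11 and 1.76 FPKM in B73 and at 5.13, 4.09 and 4.17 in Mo17. Its 25 °C libraries did not overlap, but it was not called (log2 difference 1.09 ± 0.52, SE; edgeR quasi-likelihood, adjusted p = 0.0888). Among the 10 °C libraries that share the fit, B73 replicate 1 stood at 6.3 FPKM against 1.18 and 1.24. Without that library the log2 difference was 1.09 ± 0.15 (SE; adjusted p = 5.32e-05), and in the 6 libraries at 25 °C alone it was 1.09 ± 0.18 (SE; adjusted p = 0.000988), both by edgeR's quasi-likelihood test.

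The actin genes divided as well, and act2 turned to 0.09 with quantile normalization. act1, a filament-forming actin, stood at 152.57, 133.46 and 140.9 FPKM in B73 and at 339.76, 328.14 and 324.17 in Mo17. The lines were far apart relative to their spread (log2 difference 1.22 ± 0.07, SE), and this was the smallest adjusted p of the comparison (edgeR quasi-likelihood, 3.87e-07). ADF3, an actin-depolymerizing factor, which severs filaments, rose from 50.35, 57.83 and 51.43 FPKM in B73 to 90.85, 81.94 and 87.54 in Mo17 (0.71 ± 0.08, SE). act2, a second actin, stood at 38.83, 37.89 and 42.38 FPKM in B73 and at 34.17, 34.63 and 30.19 in Mo17. The libraries did not overlap, but the call lay at the threshold (log2 difference -0.27 ± 0.11, SE; edgeR quasi-likelihood, adjusted p = 0.0484). It was lost with the 6 libraries at 25 °C alone, with a replicate block (-0.26), without a filter and without any 1 of the 6 libraries at 25 °C, at -0.21 to -0.30. Leaving out B73 10 °C replicate 3 or Mo17 10 °C replicate 2 or 3 ended it as well (-0.27 each). adf1 was listed at 0 in all 6 libraries and adf2 did not exceed 0.07 FPKM.

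The 9 genes named after adenosine phosphosulfate reductase, an enzyme of sulfate assimilation, gave 2 higher, 2 lower and 5 not called, where 61.8% of all tested genes were called. Their median log2 difference was -0.05, beside 0.17 over all tested genes. The descriptions of the 4 called members name the reductase. Their activity annotation is instead protein disulfide isomerase, which folds proteins in the endoplasmic reticulum. aprl6 stood at 1.51, 1.52 and 2.09 FPKM in B73 and at 3.31, 4.34 and 4.04 in Mo17 (log2 difference 1.19 ± 0.21, SE; 0.22 and not called with quantile normalization). aprl5 rose from 14.11, 14.68 and 14.57 FPKM to 23.3, 23.42 and 21.52 (0.65 ± 0.09, SE). aprl4 was lower, at 48.59, 47.7 and 55.22 FPKM in B73 and 32.6, 39.28 and 32.48 in Mo17 (-0.54 ± 0.12, SE). aprl8 was also lower (-0.35 ± 0.10, SE), but lost its call with quantile normalization (-0.15) and without B73 25 °C replicate 2 (-0.28) or 3 (-0.30). aprl1, described as reductase-like and with the reductase as its activity annotation, stood at 1.46, 2.05 and 2.22 FPKM in B73 and at 5.54, 5.03 and 4.42 in Mo17. It behaved in the test like ARF11: the 25 °C libraries were well apart, and the gene was not called (1.38 ± 0.86, SE). B73 10 °C replicate 1 stood at 29.35 FPKM against 1.62 and 2.0 in its group. Without it the difference was 1.38 ± 0.20 (SE; edgeR quasi-likelihood, adjusted p = 0.000109), and the 25 °C libraries alone also gave a call. aprl7 had all Mo17 libraries below B73 without a call (-0.46, 95% interval -0.92 to 0.01). TMM factors, median-ratio factors and the fit without B73 10 °C replicate 1 (-0.46) did call it. aprl2, aprl3 and aprl9 overlapped between the lines, at -0.07, -0.05 and 0.04, and quantile normalization called aprl9 lower (-0.63).

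Of the other small families, the Alfin-like PHD-finger factors, which read histone marks, gave 1 call in 3 tested members, beside 61.8% over all tested genes. ALF19 stood at 22.53, 30.06 and 22.14 FPKM in B73 and at 18.35, 16.21 and 13.95 in Mo17, without overlap (log2 difference -0.62 ± 0.16, SE). ALF6 and ALF7 were not called (-0.06 and -0.19), though TMM factors called ALF7 lower (-0.45), and ALF10 was listed at 0 throughout. apx2, an ascorbate peroxidase that removes hydrogen peroxide, stood at 45.01 to 52.02 FPKM in B73 and 45.68 to 49.79 in Mo17, with a 95% interval of -0.19 to 0.21. TMM factors called it lower (-0.25). arf1, the ADP-ribosylation factor of vesicle budding, was not called (0.29 ± 0.13, SE), but was without Mo17 25 °C replicate 1 (0.43). The gene named abc1, annotated to protein kinase activity, was lower in Mo17, from 5.5 to 6.4 FPKM in B73 to 3.38 to 4.06 (-0.64 ± 0.12, SE). abcf1, annotated to ATPase and transporter activity, was 1.31-fold lower (-0.39 ± 0.14, SE). Its call was lost without B73 25 °C replicate 1 (-0.33), 2 (-0.42) or 3 (-0.41) or Mo17 25 °C replicate 1 (-0.36) or 3 (-0.37).

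**Figure D3:**
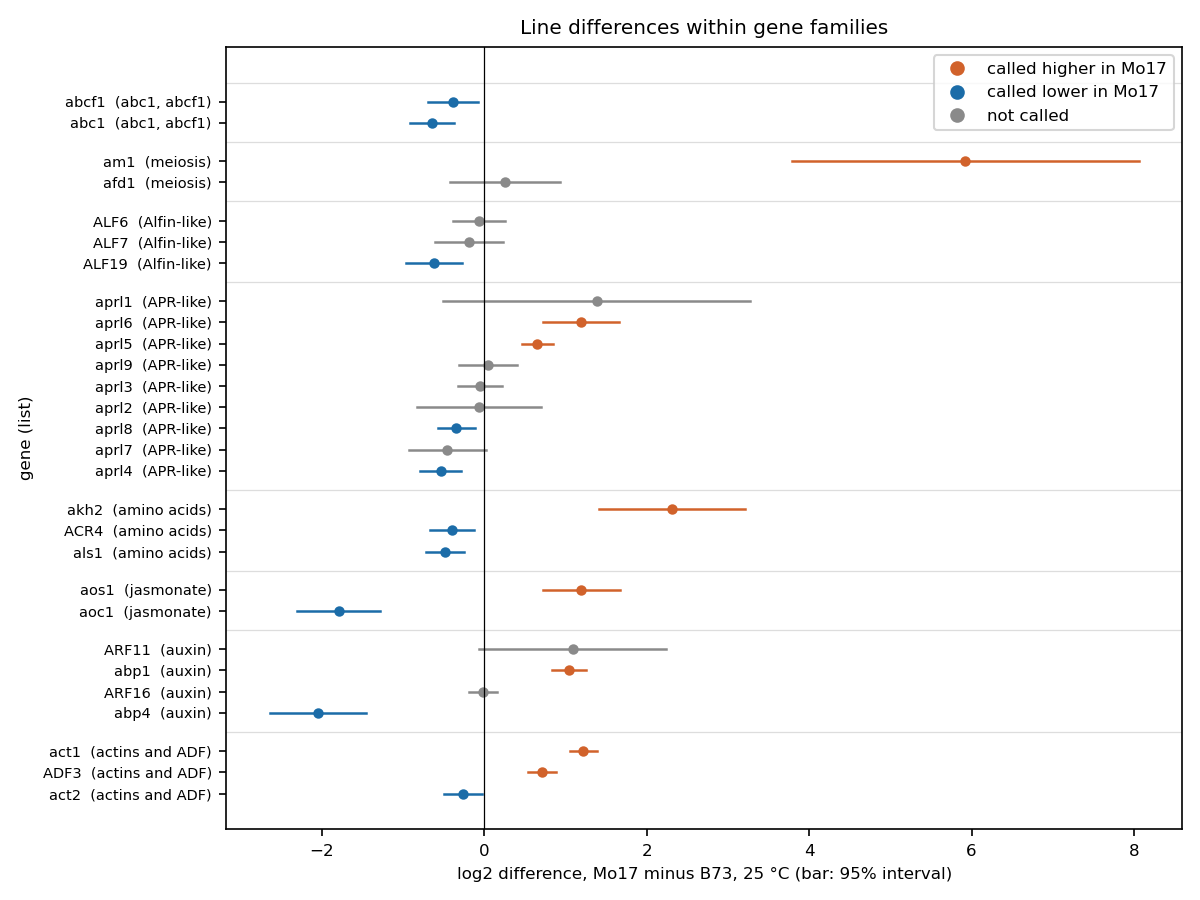
Log2 difference between Mo17 and B73 at 25 °C (x axis) with 95% intervals for the tested members described here of 8 gene lists (y axis), coloured by call. Within the actin, auxin, jasmonate, amino acid and APR-like lists some members are higher and others lower in Mo17; act2 turned to 0.09 with quantile normalization.

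Of the meiosis genes, am1, which maize needs to enter meiosis, was higher in Mo17 and passed the filter through Mo17 libraries only. It stood at 0.0, 0.09 and 0.22 FPKM in B73 and at 5.28, 8.24 and 6.35 in Mo17 (chromosome 5 at 16553338 to 16560267, minus strand). The lines were far apart, while the B73 level was near 0, so the size is loosely bounded. The log2 difference was 5.92 with a 95% interval of 3.79 to 8.06, changing to 7.14 without B73 25 °C replicate 3 and 2.39 with quantile normalization. afd1, a cohesin subunit of meiotic chromosomes, overlapped between the lines at 1.65 to 3.7 and 2.78 to 3.87 FPKM, a log2 difference of 0.25 with an interval of -0.42 to 0.93.

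Outside these lists 25 genes were tested, 7 of them called higher and 4 lower, beside 36.8% and 25.0% over all tested genes. anx2, an annexin, a protein that binds membranes in the presence of calcium, stood at 4.87, 6.55 and 3.98 FPKM in B73 and at 17.45, 24.91 and 31.16 in Mo17. It was 4.77-fold higher, with no overlap (log2 difference 2.25 ± 0.43, SE). AI714808, the methylesterase of protein phosphatase 2A, was nearly constant within each line, at 66.46, 70.9 and 67.93 FPKM in B73 and 156.25, 156.48 and 153.0 in Mo17 (1.18 ± 0.08, SE). apt1, needed for pollen tube growth, rose from 1.39 to 1.79 FPKM to 2.71 to 4.35 (1.08 ± 0.23, SE; 0.10 and not called with quantile normalization). AN110, an AN1-type zinc finger protein (0.95 ± 0.20, SE), and AI665421, annotated to zinc binding in a membrane (0.76 ± 0.11, SE), were also higher. ache1, annotated to cholinesterase and lipase activity, was the most reduced of this group, from 52.3, 41.56 and 54.48 FPKM in B73 to 28.49, 22.47 and 19.31 in Mo17 (-1.08 ± 0.23, SE). The glycosyltransferase a4 fell from 52.8, 60.18 and 64.17 FPKM to 37.11, 31.59 and 39.96 (-0.71 ± 0.11, SE), and the putative RNA- or DNA-binding genes AI691686 and AI676903 were lower by smaller amounts (-0.54 and -0.46). a2_1 shares its symbol with the anthocyanin gene a2, but its description is unknown and its activity annotation is that of a glycosyltransferase. It was called higher (0.68 ± 0.20, SE) although Mo17 replicate 1, at 54.89 FPKM, lay within the B73 range of 43.42 to 59.49. Its call was lost with TMM factors (0.43) and without B73 25 °C replicate 2 (0.57) or Mo17 25 °C replicate 3 (0.44).

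For 29 tested genes no difference was called. In 22 of them the 95% interval stayed within a 2-fold difference in either direction. For 10 it stayed within 0.5 on the log2 scale: a4Lea, adss1, AI665898, ALF6, AMADH2, ANT2, aprl3, aprl9, apx2 and ARF16, of which TMM factors called AI665898 (-0.29), apx2 and ARF16 lower and quantile normalization aprl9. The interval was wider than 2-fold for 7 genes, among them aap1, ACI13, AI901738, AI987507, aprl1 and ARF11, so differences over 2-fold were not excluded there. For 3 of these, leaving out Mo17 replicate 2 gave a call. aap1, an acylaminoacyl-peptidase, had 119.46, 47.45 and 105.9 FPKM in Mo17 against 50.48 to 58.75 in B73, so that replicate 2 alone lay below the B73 range. AI901738, annotated to xylan synthesis, had 1.02, 2.36 and 0.93 FPKM in Mo17 against 2.26 to 2.45 in B73, so that replicate 2 alone lay within the B73 range. AI987507, an INDETERMINATE-related factor, had 0.65, 0.82 and 0.36 FPKM in Mo17 against 0.72 to 1.18 in B73, where replicate 2 was the highest of a wide spread. Without Mo17 replicate 2 all 3 were called, at log2 differences of 1.02, -1.27 and -0.91 (edgeR quasi-likelihood, adjusted p = 0.0012, 0.00247 and 0.0347). With all libraries kept, DESeq2 and the filter at an FPKM of at least 5 called aap1 (0.72 each). TMM factors called AI901738 (-0.97) and AI987507 (-0.90), as did quantile normalization (-0.9999 and -0.63), and median-ratio factors called AI987507 (-0.76). Leaving out 1 library also gave a call for aap1 without B73 10 °C replicate 1 (0.72) and for AI812156, an Elongator subunit, without B73 25 °C replicate 2 (-0.33). AI812156 was also called lower with TMM factors (-0.51), median-ratio factors (-0.39) and quantile normalization (-0.37). Within a line, the highest library was at least 2-fold above the lowest for 6 genes in Mo17 (among them aap1, adh2, AI901738, AI987507 and aox1) and for 6 in B73 (among them ACI13, afd1, ANAC076, aox1 and ap17).

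The 23 genes below the filter reached at most 1.3 FPKM in a 25 °C library, that of an1, a copalyl diphosphate synthase of gibberellin synthesis, in B73 replicate 2. aba1, the sole gene of the abscisic acid list, stood at 0.07 to 0.5 FPKM. Counts were 0 in all 6 libraries for abph1, adf1, ae1, ALF10 and ANAC030. acco20, AGAMOUS, aox3 and AR5 were listed at 0 in all 3 B73 libraries but not in all 3 Mo17 libraries, and acs7 showed the reverse. The other line was also at or near 0 for acco20 (0.08, 0.0 and 0.04 FPKM in Mo17), AR5 (0.02, 0.0 and 0.0 in Mo17) and acs7 (0.0, 0.04 and 0.05 in B73). For 5 of the 23 genes the lines did not overlap, each higher in Mo17: ACO31, AGA2, AGAMOUS, an2 and aox3. ACO31, an ACC oxidase, which makes ethylene, stood at 0.0, 0.03 and 0.0 FPKM in B73 and at 0.36, 0.94 and 0.8 in Mo17. an2, a second copalyl diphosphate synthase, stood at 0.1, 0.12 and 0.11 FPKM in B73 and at 0.61, 0.5 and 0.59 in Mo17. When the filter was dropped, ACO31, AGA2, an2 and aox3 were called higher in Mo17. These calls rest on values under 1 FPKM. AGA2 was nearest the threshold (edgeR quasi-likelihood, adjusted p = 0.039). aox3, at 0 in every B73 library, had no usable SE, so the size of its difference is not bounded.

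The line difference at 25 °C was set beside that in the 6 libraries at 10 °C, which are other libraries of the same lines. Of the genes called at 25 °C, 27 of 28 higher and 18 of 19 lower kept their sign at 10 °C; the exceptions were a2_1, at -0.00, and AI691686, at 0.05. All Mo17 libraries at 10 °C lay above all B73 libraries for 26 of the 28 and below them for 15 of the 19, where 60.5% of tested genes had no overlap and 64.5% were called at 10 °C. The 28 and 19 include ae1_1, aldh5, am1, amyb5, aox1 and aox1_1, which met the filter over all 12 libraries through 1 line only. For these 6 the same direction at 10 °C was largely set by the filter. akh2 and abp4, also among the called genes, needed the line where they were high to pass. Whether the line difference changed with temperature was tested as the interaction, which called 0 of the 76 genes (0.00%; edgeR quasi-likelihood, smallest adjusted p = 0.432). limma on log2(FPKM + 1) and DESeq2 also called 0, quantile normalization called 2 (abc1 and AI691686), and 6 genes had an unadjusted p under 0.05 by edgeR: a2_1, a4, abc1, AI691686, aprl1 and AR3. abc1 was at 6.02, 6.4 and 5.5 FPKM in B73 and 4.06, 3.38 and 4.02 in Mo17 at 25 °C, and at 6.03, 5.31 and 5.64 in B73 and 5.52, 5.09 and 5.29 in Mo17 at 10 °C. Its lines were apart at 25 °C and overlapped at 10 °C, with log2 differences of -0.64 and -0.10. AR3 had log2 differences of 1.39 at 25 °C and 0.97 at 10 °C, and a4 had -0.71 and -1.07. adh2 had 0.6, 0.63 and 0.3 FPKM in B73 and 15.74, 41.88 and 44.28 in Mo17 at 10 °C, where replicate 2 was not the low library.

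**Figure D4:**
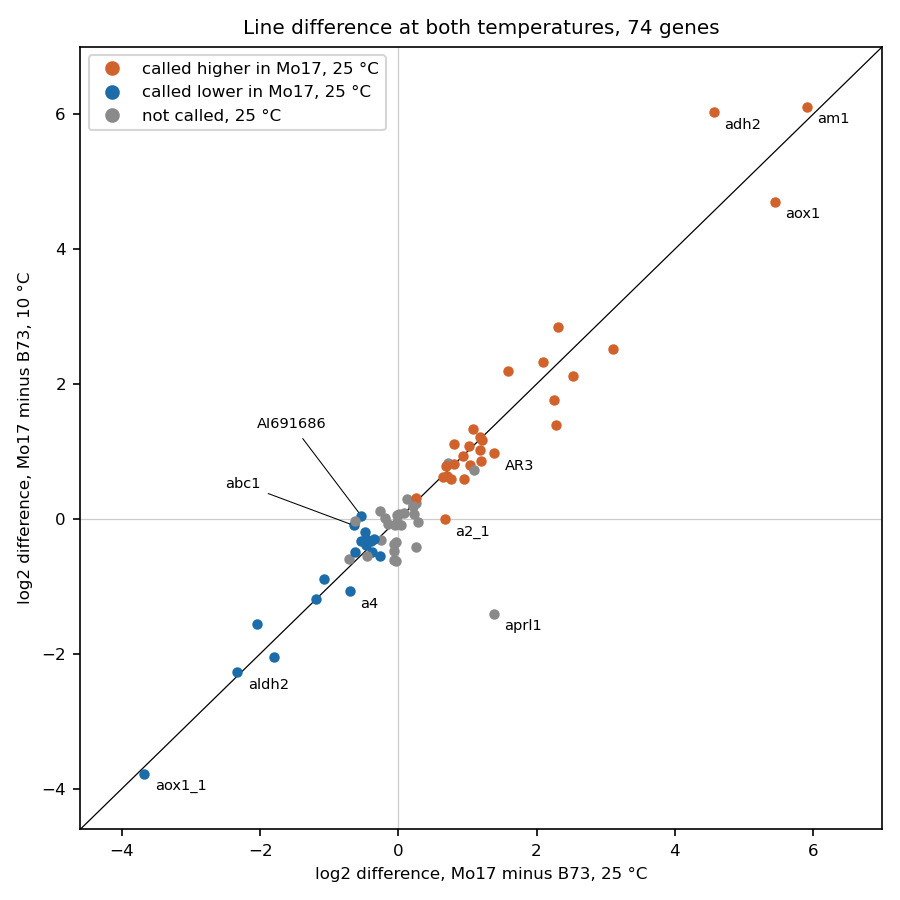
Log2 difference between Mo17 and B73 at 25 °C (x axis) and at 10 °C (y axis) for 74 of the 76 genes, coloured by the call at 25 °C, with a line of equal differences. Most genes lie near the line from aox1_1 to am1, and aprl1 lies farthest below it.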

How the data were processed

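Per the labels' protocols, polyadenylated RNA was made into dUTP-stranded libraries and read in pairs. Per the submitters' processing notes, 1 genome build (B73 RefGen_v4) served both lines, and the tools included HISAT2 2.0.4, StringTie 1.3.4d, cutadapt 1.9, DESeq2 and edgeR. The sources used here do not say whether counting used strand, and alignment rates were not analysed here. Near-identical or overlapping genes may share reads. The deposited count of a gene is a whole number per library, but no count of 1 or 2 occurs, so no counting intervals are given and absolute depth is unknown. The deposited FPKM, per the file headers, equals the count divided by a gene and a library constant, within 0.374% over 48 genes. This gave the relative depth. Counts per FPKM ran from 50.7 to 282 between genes. For example, aos1, with a genomic span of 1941 bases, had 50.7, and als1, with a span of 2219 bases, had 132. Transcript lengths were not examined, and FPKM was not compared between genes.

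edgeR 4.0.16 (R 4.3.3) was run on the counts of 12 libraries in 4 groups, with relative depth as library size, as 2-sided tests. SE and 95% intervals come from the F statistic of a fit without a prior count. Folds are ratios of mean depth-normalized counts. Alternatives were TMM, median-ratio and quantile scaling, limma 3.58.1 on log2(FPKM + 1) and log2(FPKM + 0.1), DESeq2 1.42.0, other filters, the 25 °C libraries alone, a replicate block and each library left out. The procedure was tested on simulated data. P-values measure spread between 3 biological replicates a group. Named were the other tested members of lists built from gene symbols, up to 10 called genes per direction outside them, and low genes; further genes were named after their values were seen. The values of 2 tested genes are not reported here, though they stay in the fits and total counts. Genes, lists and tests were chosen with earlier results of these data known. The deposited chromosome identifiers were turned into numbers through 91 genes whose transcripts are also in RefSeq's NAM-5.0 gene table, with no conflict among them; positions are the deposited ones.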

Additional observations from a re-analysis of the deposited data

How the results depend on the processing

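Of 47 called genes, 30 kept call and sign under each of the 22 alternatives that tested them; 3 of the 30 were not tested at an FPKM of at least 5. Quantile normalization of log2(FPKM + 1) left 18 genes called higher and 2 interactions (abc1 and AI691686, at 0.72 and 0.74 on the log2 scale). It set the adh1 and AR3 differences to 0, which the method fixes for genes of equal rank, and turned act2 to 0.0904, ald1 to -0.0376 and the uncalled aprl9 to -0.63. TMM factors turned akin1 to -0.0016 and the uncalled apx2 to -0.25. Other uncalled genes changed sign too, such as a4Lea (-0.03 with TMM factors and with quantile normalization) and ACI13 (-0.02 and -0.39). The causes were not tested. Leaving out each library gave 26 to 31 genes higher, 14 to 20 lower and 0 interactions. The replicate block gave 28 higher and 18 lower, losing act2. Deviations of same-numbered B73 and Mo17 libraries at 25 °C correlated at -0.163 to 0.022, and 1 of the 6 libraries correlated best with its own number. Whether replicate numbers pair the samples cannot be told from so few values. Without a filter 32 genes were higher and 18 lower; with FPKM of at least 5, 23 and 18. Absolute depth is unknown, so low genes are described by FPKM alone.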

Other observations

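The called genes lay on all 10 chromosomes. Over the 47 called genes, the library that lay nearest the other line was most often Mo17 replicate 1 within Mo17 (23 genes, against 16 for replicate 2 and 8 for replicate 3) and B73 replicate 2 within B73 (24 genes, against 12 for replicate 1 and 11 for replicate 3). The median ratio of the highest to the lowest library over the tested genes was 1.23 in both lines.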
